A study of Mus musculus with 70 samples.

Results

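The step from the third to the fourth kidney-to-lung passage of GFP-RENCA cells was followed in 8 of the 65 RNA samples of the series: the 5 samples of passage 3 (P3, replicates 1 to 5) and the 3 samples of passage 4 (P4, replicates 1, 3 and 5). They were taken by their titles and all lay on the earlier-scanned slides. RENCA is a mouse renal adenocarcinoma line from BALB/c mice. It carried a lentiviral GFP transgene driven by the MND promoter in every sample, P0 included. In each round cells were placed under the left kidney capsule of BALB/c females of 6 weeks, and cells of the lung metastases that formed (K-LM) were digested out and cultured until GFP-negative cells were no longer detected. The cultures, not the tissue, were measured, and the mice received no drug. The labels do not tie a P4 sample to the P3 sample it came from, nor say how many mice gave a sample. P-values therefore measure only the spread between samples, pooled over all groups in the fit and not over these 8 alone. P0 (cells never passed through a mouse, 2 samples) and K-LM P2 (1 sample) and P5 (4 samples) entered the same fit, and the same step in T-LM (lung metastases after tail vein injection, 3 and 4 samples) and KPT (tumours at the kidney, 2 and 3 samples) served for comparison.

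Metastatic carcinoma cells carry out a set of linked tasks: they lay down and degrade extracellular matrix, answer growth factors through receptor tyrosine kinases, and respond to inflammatory cytokines. The acute-phase response is driven by interleukin 6 and NF-kappaB and gives serum amyloid A, haptoglobin and complement factors, mostly known from liver but also made by tumour cells. Ribosomal protein mRNAs are short and very abundant, and most begin with a pyrimidine tract through which mTOR controls their translation. Messages of giant proteins such as plectin, dystonin and the largest ubiquitin ligases are long and mostly far less abundant.

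Some libraries stood apart. Signals are given as a level, the log2 processed signal minus the 75th percentile of commonly detected probes on that array, so that 0 is as bright as that percentile. Between 27.5% and 28.2% of probes were well above background in P3 replicates 4 and 5, against 32.0% to 33.8% in the other P3 samples and 31.6% to 35.9% at P4. P3 replicates 4 and 5 also lay at another place on their slides than P3 replicates 1 to 3, and all P4 arrays lay at yet another, so place and passage cannot be told apart within these 8 samples. No spot was saturated. Of 10 fibroblast markers, 6 were well above background in at least 1 P3 sample, 9 in at least 1 P4 sample and 0 in P0. Their summed signal, relative to the 75th percentile, was 0.0514 and 0.0522 in P0, 0.242 to 0.58 at P3 and 0.643 to 16.3 at P4. The low P4 value belonged to replicate 1. The levels of Lum (lumican) were -8.52, -8.55, -8.89, -8.16 and -8.50 in P3 replicates 1 to 5 and -8.17, -3.60 and -2.91 in P4 replicates 1, 3 and 5. The levels of Fap (fibroblast activation protein) were -8.15, -8.69, -8.93, -8.17 and -8.15 in P3 replicates 1 to 5 and -8.46, -4.21 and -3.93 in P4 replicates 1, 3 and 5. P4 replicates 3 and 5 thus stood far above the rest for both genes while P4 replicate 1 lay within the P3 range. Dpt was not well above background on any of the 8 arrays. Of 15 macrophage markers, 6 (Ptprc, C1qa, C1qb, C1qc, Mrc1 and Laptm5) were not well above background on any of the 8 arrays and 5 (Csf1r, Cd68, Itgam, Cd14 and Aif1) were on all 8. P4 replicate 1 was the highest of the 8 for the other 4 only, Adgre1, Fcer1g, Tyrobp and Lyz2 (levels -4.53, -3.31, -5.15 and -3.67). The summed signal of the list was 3.21 to 4.86 at P3 and 2.85 to 4.16 at P4. Krt8 and Krt18, keratins of simple epithelia, were well above background in all 8, while Epcam and Cdh1 were in none. Of 12 lung epithelium markers, 9 were well above background on none of the 8, among them the surfactant genes Sftpc, Sftpb, Sftpa1 and Sftpd, while Lamp3 and Napsa were on all 8 and Scgb1a1 on 6. Of 15 kidney tubule markers, 9 were on none, among them Pax2 and Umod, Pax8 was on all 8 and 5 were on some. In bulk RNA, fewer cells of a type and less RNA per cell cannot be told apart.

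**Figure D1:**
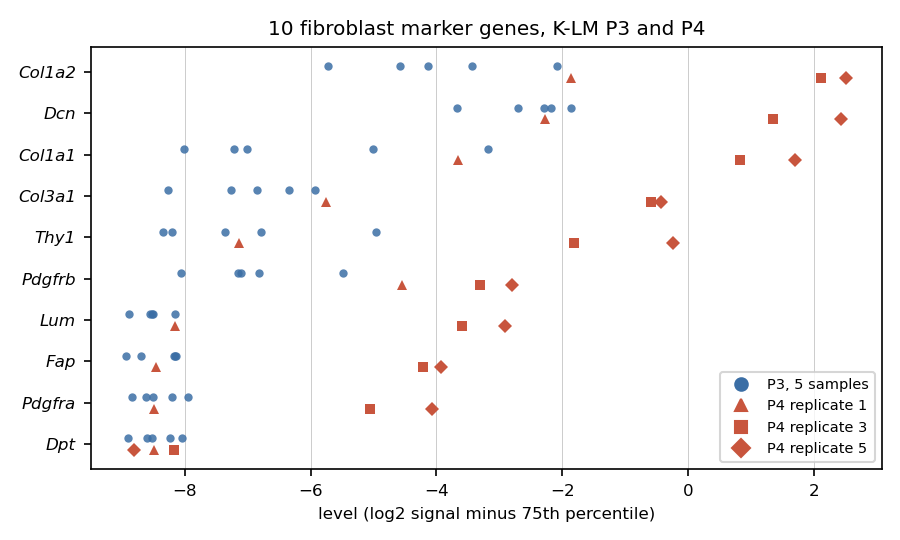
Levels (log2 signal minus the array's 75th percentile) of the 10 fibroblast markers in the 5 K-LM P3 samples (circles) and the 3 K-LM P4 samples (triangle, replicate 1; square, replicate 3; diamond, replicate 5). P4 replicates 3 and 5 lay above all P3 samples for 9 genes, and Dpt stayed at background.

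The first question was which genes changed from P3 to P4. Rises were called in 11 of 30 acute-phase and complement genes, 9 of 40 matrix genes and 7 of 31 protease and inhibitor genes, and the largest single changes were a rise in Mgp and a fall in Gsta3. A probe was called where limma gave an adjusted p (Benjamini-Hochberg) of at most 0.01. Of 18812 probes tested, 297 (1.58%) were called, of which 229 were higher and 68 lower at P4. With 1 probe per gene, 147 of 10826 genes (1.36%) were called higher and 44 (0.406%) lower. The median change over these genes was 0.12 on the log2 scale. All P4 samples lay above all P3 samples for 1204 genes (11.1%) and below them for 736 (6.8%). The number of called probes was fragile. It was 0 with the 8 arrays alone (limma, 4370 probes at an unadjusted p under 0.05), 2820 with all routes and passages of the earlier slides in the fit, 3 without P4 replicate 5, 31 without P3 replicate 5, 108 without P3 replicate 4, 101 without P4 replicate 3, 506 without P4 replicate 1 and 630 without P3 replicate 3. With P4 replicate 1 as the only P4 array, assumed to vary like the other groups, it was 152, and 29 of these were among the 297. The split also moved with the scaling: 77.1% of calls were rises in the setting used here, 57.3% with the deposited values and 36.6% when the percentile was taken over all probes.

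The matrix gene with the largest rise was Mgp, which encodes matrix Gla protein, an inhibitor of calcification. Its levels were -5.73, -8.35, -3.81, -4.76 and -5.25 in P3 replicates 1 to 5 and -2.08, 2.52 and 2.34 in P4 replicates 1, 3 and 5. The change was 6.51 ± 1.07 (SE, adjusted p = 0.00539), where ± here and below is the standard error from the fit. For Fn1 (fibronectin) the levels were -3.11, -5.68, -1.65, -6.16 and -5.79 in P3 replicates 1 to 5 and -0.65, 1.24 and 2.66 in P4 replicates 1, 3 and 5, a change of 5.56 ± 0.98 (adjusted p = 0.00635). All 3 P4 samples lay above all 5 P3 samples for both genes, and P4 replicate 1 lay nearest to P3. Col1a2, a chain of type I collagen, had levels of -3.44, -4.13, -2.08, -5.73 and -4.58 in P3 replicates 1 to 5 and -1.86, 2.12 and 2.51 in P4 replicates 1, 3 and 5 (change 4.92 ± 0.87, adjusted p = 0.00635). Its partner chain Col1a1 changed by 5.71 but missed the threshold (adjusted p = 0.0105), and P4 replicate 1 at -3.66 was below P3 replicate 3 at -3.17. Lamb1, the beta-1 laminin chain of basement membranes, rose by 4.56 ± 0.83 (adjusted p = 0.00691). It was well above background in 2 of 5 P3 samples, Fn1 in 3 and Mgp in 4. Col6a1 was not well above background in any P3 sample and was at least 8.53-fold higher at P4 (adjusted p = 0.00274), with P4 levels of -5.44, -2.61 and -1.81.

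As a group, 9 of 40 tested genes of the extracellular matrix list (64 members) rose (against 1.36% of all genes), 0 fell and 31 did not pass. The median change was 1.50, and 38 of 40 changes were positive, against 56.9% of all genes tested. Members seen only in the 3 P4 samples could enter the test through P4 alone. When all 8 arrays had to pass background, 3 of 24 tested members rose, with a median of 1.17. Over all probes 83 of 14096 then rose. The shift differed between the P4 samples. Relative to the P3 mean, the median of the list was 0.94, 1.63 and 1.81 in P4 replicates 1, 3 and 5. With P4 replicate 1 as the only P4 array, 0 of the 40 genes were called higher and 1 lower, and without P4 replicate 5 none was called (limma). The fibroblast markers moved with this result: 6 of 10 were tested, all 6 with positive changes, Col1a2 and Pdgfrb were called, and their median was 4.37. Relative to the P3 mean the median of these 6 was 1.65, 5.71 and 6.50 in P4 replicates 1, 3 and 5. Pdgfrb, a receptor of platelet-derived growth factor, rose by 3.38 ± 0.49 (adjusted p = 0.00321). It was well above background in 1 of 5 P3 samples. The part of fibroblast RNA in the matrix result was not tested.

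**Figure D2:**
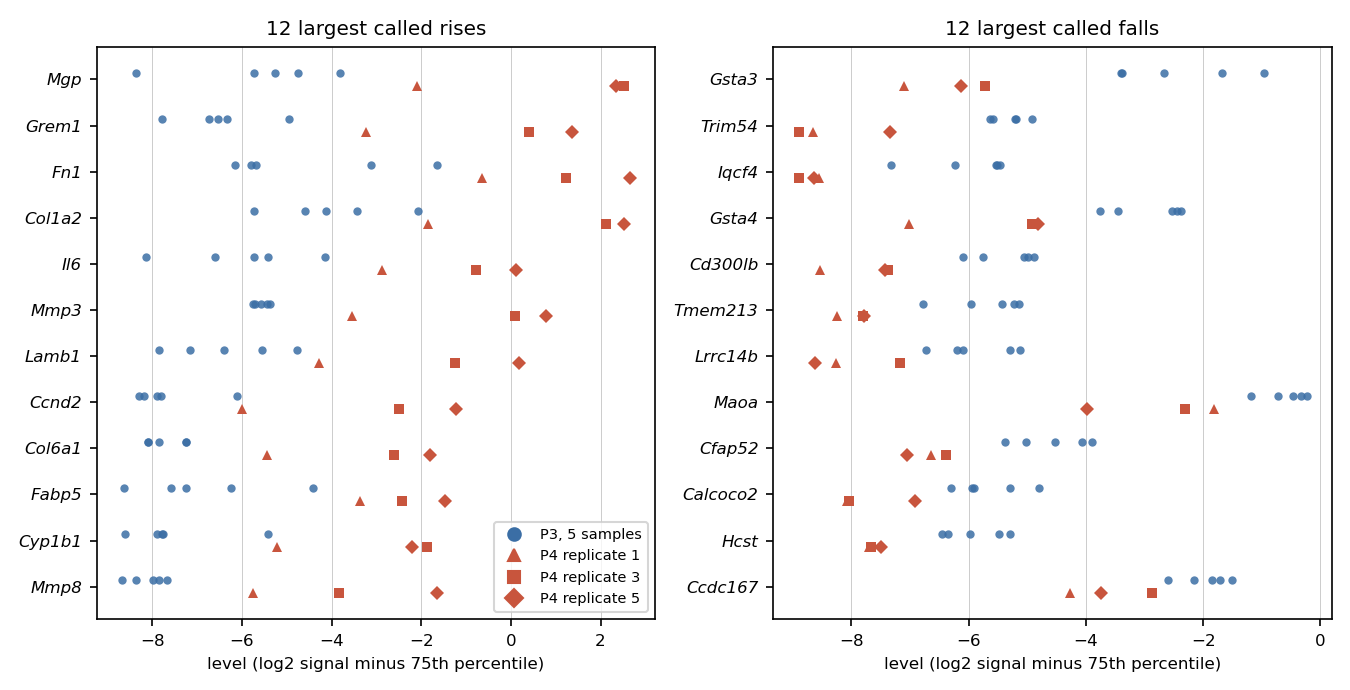
Levels (log2 signal minus the array's 75th percentile) of the 12 largest rises and 12 largest falls among called genes whose samples do not overlap, in the 5 K-LM P3 samples (circles) and in P4 replicates 1 (triangle), 3 (square) and 5 (diamond). For all 12 rises P4 replicate 1 lay between the P3 samples and P4 replicates 3 and 5.

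Enzymes that cut the matrix rose as well. Mmp3 (stromelysin-1) was steady at P3 and higher in each P4 sample, with levels of -5.76, -5.44, -5.70, -5.37 and -5.57 in P3 replicates 1 to 5 and -3.54, 0.09 and 0.79 in P4 replicates 1, 3 and 5 (change 4.68 ± 0.76, adjusted p = 0.00502). Mmp8, the neutrophil collagenase, was not well above background at P3 and was at least 6.2-fold higher at P4 (adjusted p = 0.00367). Mmp13, a collagenase of type II collagen, rose by 3.52 ± 0.45 (adjusted p = 0.00265). Of 31 tested genes of the protease and inhibitor list, 7 rose (against 1.36% of all genes) and 0 fell, with a median change of 0.79. None was called (limma) without P4 replicate 5 or with P4 replicate 1 as the only P4 array, and the fibroblast markers stood high in the same replicates 3 and 5. The part of fibroblast RNA here was not tested either. Those that rose also included Serpinb2 and Mmp2. When all 8 arrays had to pass background, 3 of 19 tested members of the list rose, against 83 of 14096 probes. Adamts2, which trims procollagen, had the largest change of the list at 5.43 ± 1.13 but missed the threshold (adjusted p = 0.0125). In P4 replicate 1 the list's median against P3 was 0.62, and in replicates 3 and 5 it was 1.07 and 1.22.

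Both Mmp3 and Mmp13 have a match to TGANTCA, the core that AP-1 (Fos and Jun dimers) binds, close before the gene start, and their last 60 bases before the start (RefSeq, GRCm38.p6, plus strand) are shown with that match in capitals because these genes moved together. The first lies at chr9:7445762-7445821 and the second at chr9:7272454-7272513.
Mmp3: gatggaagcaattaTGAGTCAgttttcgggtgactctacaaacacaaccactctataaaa
Mmp13: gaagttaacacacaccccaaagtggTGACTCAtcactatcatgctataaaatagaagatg
The match covers bases 46 to 40 before the start in Mmp3 and 35 to 29 in Mmp13. These letters, which read the same way on both strands up to the free base, are found in the 250 bases before the start in 6.75% of all 32851 promoters and in 9 of the 147 promoters of 114 called rises (6.12%). Among promoters of the tested genes the share was 4.79%. The motif was chosen after the values were seen, and a match is a description only.

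Of 30 tested acute-phase and complement genes, 11 rose (against 1.36% of all genes), 0 fell and 19 did not pass, and the median change was 1.51. When all 8 arrays had to pass background, 6 of 19 tested members rose, against 83 of 14096 probes. Il6, the cytokine that drives the acute-phase response, had levels of -5.73, -8.14, -4.15, -5.41 and -6.59 in P3 replicates 1 to 5 and -2.86, -0.77 and 0.11 in P4 replicates 1, 3 and 5 (change 4.83 ± 0.82, adjusted p = 0.00607). It was well above background in 2 of 5 P3 samples. Hp (haptoglobin) was not well above background in any P3 sample and was at least 4.33-fold higher at P4 (adjusted p = 0.00321). Saa3 and Saa1, serum amyloid A proteins, rose by 3.90 and 3.72 (adjusted p = 0.00274 and 0.00411). Of these 11, C3, the central complement protein, had the smallest spread at P4 (SD 0.15), with levels of -1.23, -0.91, -0.83, -2.19 and -1.82 in P3 replicates 1 to 5 and 1.37, 1.07 and 1.19 in P4 replicates 1, 3 and 5 (change 2.60 ± 0.29, adjusted p = 0.00134). Both passages were thus well apart for C3, with P4 replicate 1 the highest sample. Socs3, a feedback inhibitor of interleukin 6 signalling, and Bcl3, a partner of NF-kappaB, rose by 2.51 and 2.23 (adjusted p = 0.00286 and 0.00404). Relative to the P3 mean the median of the list was 1.43, 1.79 and 1.27 in P4 replicates 1, 3 and 5. With P4 replicate 1 as the only P4 array, 1 of 30 was called higher and 1 lower, and without P4 replicate 5 none of the 30 was called (limma).

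Cfb and Saa2, which the study followed as markers, were both dim. Cfb, complement factor B, had levels of -7.98, -6.90, -7.81, -7.70 and -7.48 in P3 replicates 1 to 5 and -5.60, -1.98 and -3.59 in P4 replicates 1, 3 and 5. No P3 sample was well above background, so Cfb was at least 6.29-fold higher at P4 (adjusted p = 0.00321). Saa2 was well above background in 2 of the 8 samples, both at P4, and was not tested. Its levels were -8.37, -8.35, -7.78, -7.99 and -7.40 in P3 replicates 1 to 5 and -6.29, -4.93 and -6.32 in P4 replicates 1, 3 and 5, at least 1.44-fold higher at P4. The K-LM signature list of the study was used without 2 members that match families of mouse genes, which left 14. Of 12 tested, 5 were called higher (Col6a1, Cfb, Saa1, Socs3 and Bcl3), against 1.36% of all genes. The list's median change was 1.80, against 0.12 over all genes. When all 8 arrays had to pass background, 3 of 8 tested members were called higher, against 83 of 14096 probes. That list was chosen by the study with these samples and is not independent evidence of the direction.

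The 250 bases before the start of Il6 (chr5:30012864-30013113, GRCm38.p6, plus strand, from RefSeq) are shown because Il6 leads the acute-phase rises, with a match to a form of the NF-kappaB site (GGG, any 2 bases, TTTCC) in capitals.
Il6: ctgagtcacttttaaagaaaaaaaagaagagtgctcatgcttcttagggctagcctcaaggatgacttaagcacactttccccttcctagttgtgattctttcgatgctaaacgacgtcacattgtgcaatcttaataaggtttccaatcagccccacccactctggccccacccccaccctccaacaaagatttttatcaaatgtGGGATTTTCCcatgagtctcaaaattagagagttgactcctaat
The match covers bases 44 to 35 before the start. On either strand this motif is found in 1.41% of all 32851 promoters of that length, in 1.47% of those of tested genes and in 5 of the 147 promoters of called rises (3.4%). It was also chosen after the values were seen.

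Grem1, a secreted antagonist of bone morphogenetic proteins, had levels of -6.34, -7.79, -4.95, -6.53 and -6.74 in P3 replicates 1 to 5 and -3.24, 0.40 and 1.36 in P4 replicates 1, 3 and 5 (change 5.98 ± 0.83, adjusted p = 0.00291). Rspo3, an amplifier of Wnt signals, was at least 6.61-fold higher at P4, since no P3 sample was well above background (adjusted p = 0.00705). These 2 were the called members among 16 tested secreted regulators of BMP and Wnt signals, where 1.36% of all genes were called higher. The list's median relative to P3 was 0.20, 1.59 and 2.49 in P4 replicates 1, 3 and 5. Egfr, the epidermal growth factor receptor, had levels of -5.84, -6.14, -5.26, -7.22 and -6.63 in P3 replicates 1 to 5 and -4.07, -2.64 and -0.63 in P4 replicates 1, 3 and 5 (change 3.77 ± 0.65, adjusted p = 0.00626). Its ligand gene Ereg (epiregulin) rose by 3.84 ± 0.72 (adjusted p = 0.00761), and the other 4 tested genes of that family did not pass. A second tested probe of Egfr changed by 1.87 and was not called. Ccnd2, a D-type cyclin of G1, rose by 4.42 ± 0.81 (adjusted p = 0.00721) and was the only call among 65 tested cell cycle genes, whose median was -0.10. Ptgs2, the inducible cyclooxygenase of prostaglandin synthesis, rose by 3.74 ± 0.54 (adjusted p = 0.00321). Ch25h, which makes 25-hydroxycholesterol, was at least 5.99-fold higher at P4 (adjusted p = 0.00274). Fabp5, a fatty acid carrier, and Cyp1b1, a cytochrome P450, rose by 4.40 and 4.39 (adjusted p = 0.00479 and 0.00635). Grem1, Ereg, Ccnd2, Fabp5 and Cyp1b1 were each well above background in 1 of 5 P3 samples, and Egfr and Ptgs2 in 3. Their fitted changes thus rest partly on background levels at P3. The lists of EGF family, BMP and Wnt, and prostaglandin and oxysterol genes were assembled after these genes had been seen to rise. When all 8 arrays had to pass background, 0 of 8 BMP and Wnt genes and 0 of 3 EGF family genes were called. For each gene named here P4 replicates 3 and 5 lay above P4 replicate 1, and the fibroblast markers stood high in the same samples. The part of fibroblast RNA was not tested. Without P4 replicate 5, 42 of the 44 called genes among all those named lost their call.

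Abca1, the cholesterol exporter, showed the opposite order of the P4 samples. Its levels were -8.37, -8.38, -8.54, -7.90 and -8.24 in P3 replicates 1 to 5 and -4.42, -5.82 and -5.89 in P4 replicates 1, 3 and 5, so that replicate 1 was the highest, and it was at least 2-fold higher at P4 (adjusted p = 0.0012). It was the called member of 28 tested genes of cholesterol synthesis and uptake, whose median was -0.09. It was called with replicate 1 as the only P4 array as well (adjusted p = 1.74e-05). Interferon-stimulated genes also leaned to replicate 1: the list's median against P3 was 1.35, 0.32 and 0.28 in P4 replicates 1, 3 and 5. Of 42 tested members, Gbp2, a guanylate-binding protein, rose by 2.65 ± 0.41 (adjusted p = 0.00411) and Stat2, a transducer of type I interferon signals, rose by 1.42 ± 0.24 (adjusted p = 0.00607). The remaining 40 did not pass, where 1.36% of all genes were called higher. Neither Gbp2 nor Stat2 was highest in replicate 1. In P4 replicates 1, 3 and 5 Gbp2 was at -4.34, -2.74 and -2.25, and Stat2 at -1.39, -1.30 and -1.60. Isg15 was at 2.98 in replicate 1 and at 1.13 and 1.16 in the others (adjusted p = 0.57). Among 18 tested chemokines and myeloid growth factors, Cxcl16 rose by 1.52 ± 0.26 (adjusted p = 0.00609). Ccl6, a chemokine of myeloid cells, was highest in P4 replicate 1 at -2.44 (adjusted p = 0.0584), the sample in which 4 of the 15 macrophage markers (Adgre1, Fcer1g, Tyrobp and Lyz2) were highest and 5 others, seen on all 8 arrays, were not. The part of macrophage RNA in these values was not tested.

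The falls were led by Gsta3, a glutathione S-transferase that conjugates electrophiles. Its levels were -3.39, -3.41, -0.96, -2.67 and -1.68 in P3 replicates 1 to 5 and -7.10, -5.72 and -6.12 in P4 replicates 1, 3 and 5 (change -3.89 ± 0.57, adjusted p = 0.00324). For the related Gsta4 the levels were -3.46, -3.76, -2.45, -2.38 and -2.53 in P3 replicates 1 to 5 and -7.02, -4.92 and -4.82 in P4 replicates 1, 3 and 5 (change -2.67 ± 0.47, adjusted p = 0.00635). In both genes P4 replicate 1 was the lowest sample. Maoa, monoamine oxidase A, fell in the opposite order, with levels of -1.19, -0.73, -0.47, -0.24 and -0.33 in P3 replicates 1 to 5 and -1.81, -2.31 and -3.98 in P4 replicates 1, 3 and 5 (change -2.11 ± 0.37, adjusted p = 0.00635). Gsta2 and Nqo1, a quinone reductase, changed by -2.82 and -2.14 without passing the threshold (adjusted p = 0.0122 and 0.0107). Across 39 tested genes of glutathione and xenobiotic metabolism, a list assembled after the falls of Gsta3 and Gsta4 were known, 4 fell (against 0.406% of all genes) and 0 rose, 33 changes were negative (against 4668 of 10826 over all genes), and the median was -0.44. Its median against P3 was -0.74, -0.25 and -0.28 in P4 replicates 1, 3 and 5. When all 8 arrays had to pass background, 2 of 37 tested members fell, against 39 of 14096 probes.

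The 250 bases before the start of Gsta3 (chr1:21240335-21240584, GRCm38.p6, plus strand, from RefSeq) are shown as those of the largest fall, with the match to TGACNNNGC, the core of the antioxidant response element, in capitals.
Gsta3: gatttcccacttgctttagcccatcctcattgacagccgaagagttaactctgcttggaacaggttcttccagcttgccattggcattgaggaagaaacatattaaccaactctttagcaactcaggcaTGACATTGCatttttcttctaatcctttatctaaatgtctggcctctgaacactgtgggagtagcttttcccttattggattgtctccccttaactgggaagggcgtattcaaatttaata
The match covers bases 121 to 113 before the start. On either strand this motif is found in 10.2% of all 32851 promoters, in 11.65% of those of tested genes and in 4 of the 38 promoters of called falls (10.5%). This motif too was chosen after the values were seen.

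Other falls were of dim genes. Trim54, a muscle ring-finger protein that binds microtubules, had levels of -4.91, -5.22, -5.19, -5.63 and -5.59 in P3 replicates 1 to 5 and -8.65, -8.90 and -7.34 in P4 replicates 1, 3 and 5. It was well above background in all 5 P3 samples and in no P4 sample, and was at least 2.57-fold lower at P4 (adjusted p = 0.0012). Cd300lb, a receptor of myeloid cells, was likewise seen at P3 alone and was at least 2.5-fold lower (adjusted p = 0.00286). Iqcf4, Tmem213, Lrrc14b, Calcoco2 and Hcst were not well above background in any P4 sample and were lower by at least 1.57-, 1.95-, 1.72-, 2.03- and 1.7-fold. Like Trim54 and Cd300lb, they passed the filter on dim probes, and so entered the test, through P3 alone. Cfap52, a protein of cilia, fell by 2.11 and Ccdc167 by 1.67 on the log2 scale (adjusted p = 0.00502 and 0.00635). Trim54 and Cd300lb were called with P4 replicate 1 as the only P4 array too (adjusted p = 0.000735 and 0.00394).

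The second question was how long mRNAs shifted against ribosomal protein mRNAs. Both lists were chosen after this balance had been seen to shift between passages in these data. The index and the list counts below are therefore descriptions and no independent evidence of a shift. An index was formed per sample as the mean level of 36 tested long mRNAs (of 42 listed) minus the mean level of 78 tested ribosomal protein mRNAs (of 79). It was -8.08, -7.84, -7.44, -9.41 and -9.06 in P3 replicates 1 to 5 and -6.43, -6.65 and -6.75 in P4 replicates 1, 3 and 5. The groups did not overlap, and the P4 samples lay within 0.32 of each other while the P3 samples were spread, with the 2 dim arrays lowest. The means were -8.37 ± 0.83 (SD, n = 5) and -6.61 ± 0.16 (SD, n = 3), a difference of 1.76. The long mRNAs made up most of it: their mean level went from -4.30 ± 0.59 to -2.88 ± 0.13, and that of ribosomal protein mRNAs from 4.07 ± 0.26 to 3.73 ± 0.11 (SD). Without P3 replicates 4 and 5 the difference was 1.18, and it was 1.14 with normexp and quantile normalization and 1.16 with the deposited values. Within the single slide that held both groups, P4 replicate 1 exceeded P3 replicate 5 by 2.62. With place on the slide as a term over all earlier arrays the difference was 3.19 ± 0.67 (SE), and with slide as a term it was 1.77 ± 0.37.

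**Figure D3:**
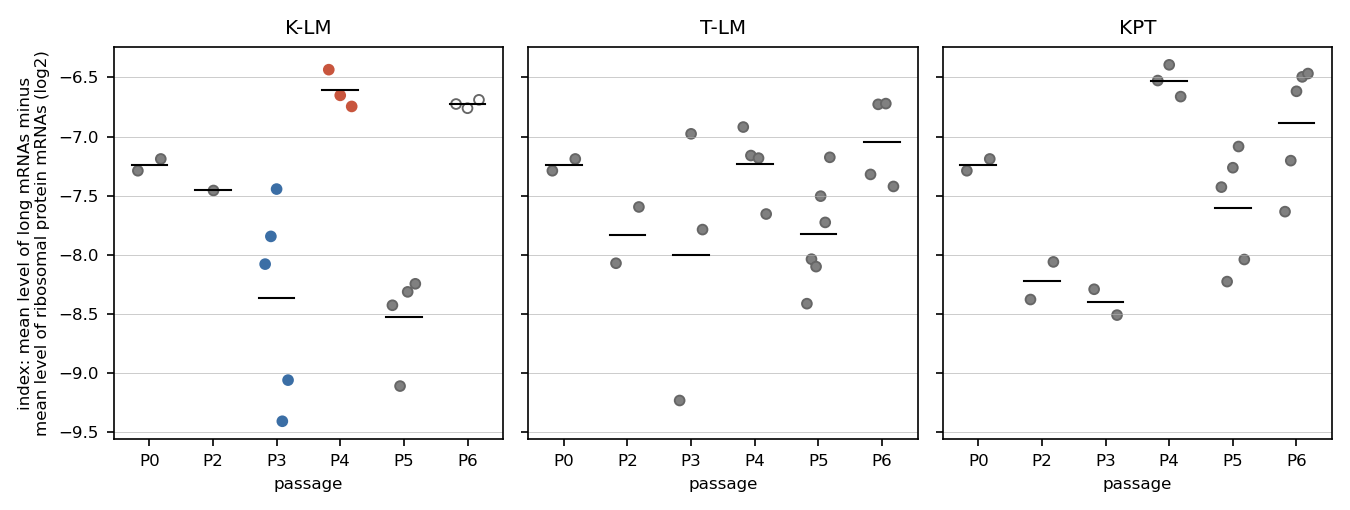
Index of long minus ribosomal protein mRNAs (difference of mean log2 levels) for each sample of P0 and of passages 2 to 6, by route. Horizontal bars are group means, open circles the K-LM P6 samples on the late slide. The K-LM P4 samples (red) lay between -6.75 and -6.43, above all K-LM P3 samples (blue, -9.41 to -7.44).

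The index varied between passages. It was -7.29 and -7.19 in P0, -6.41 in the 1 sample of K-LM P1, -7.46 at K-LM P2, and -8.43, -9.11, -8.31 and -8.25 at K-LM P5, so the P5 samples lay below all P4 samples. At K-LM P6, on the late slide, it was -6.76 to -6.69, overlapping P4. The same RNA gave a higher index on that slide. P0 replicates 1 and 2 were at -6.50 and -6.81 there. KPT P6 replicates 1, 2 and 4 were at -7.64, -7.20 and -6.50 on earlier slides and -7.17, -6.70 and -6.39 there. Slide and passage thus cannot be told apart for K-LM P6. In KPT the index was -8.29 and -8.51 at P3 and -6.53, -6.39 and -6.66 at P4, a difference of 1.87, and in T-LM the difference was 0.77 with overlapping groups. The differences between routes were not tested.

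The long mRNA list was chosen with such a shift in these data already known. Among its genes, 36 of 36 tested changes were positive, 27 genes had all P4 samples above all P3 samples (against 11.1% of all genes), 3 were called (against 1.36%) and the median change was 1.39. Lrp1, a large endocytic receptor, had levels of -3.71, -3.13, -3.72, -4.88 and -5.06 in P3 replicates 1 to 5 and -1.96, -1.59 and -0.42 in P4 replicates 1, 3 and 5 (change 2.78 ± 0.45, adjusted p = 0.00502). Dst (dystonin), a cytoskeletal linker, rose by 2.36 ± 0.45 (adjusted p = 0.00826), while a second tested probe changed by 1.74 and was not called. Akap9, a scaffold of the centrosome and Golgi, was the third call at 1.85 ± 0.36 (adjusted p = 0.00918). Ubr4, a giant ubiquitin ligase, had levels of -1.91, -1.67, -1.87, -3.63 and -3.26 in P3 replicates 1 to 5 and 0.08, -0.78 and -0.48 in P4 replicates 1, 3 and 5, so P3 replicates 4 and 5 were the lowest, and its change of 2.08 did not pass (adjusted p = 0.0118). Neither did those of Hspg2 (perlecan, 2.14) and Plec (plectin, 2.14), with adjusted p = 0.0243 and 0.0387. The median of the list against P3 was 1.58, 1.27 and 1.30 in P4 replicates 1, 3 and 5. With P4 replicate 1 as the only P4 array 0 of 36 were called (limma), with a median of 1.58. With all routes in the fit 27 of 36 were called higher and 0 lower, where 10.6% of all genes were called higher and 6.37% lower. At an adjusted p of at most 0.05 in the fit used here, 27 of 36 were higher, against 10.7% of all genes. The median was 0.86 with the deposited values and 0.95 without P3 replicates 4 and 5.

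Ribosomal protein mRNAs shifted the other way by less, by an amount that moved with the normalization. Of 78 tested, 73 changes were negative (against 4668 of 10826 over all genes). The median change was -0.33 (0.12 over all genes). For 8 genes all P4 samples lay below all P3 samples (against 6.8% of all genes). By limma 0 were called (against 0.406%), and 3 were lower at an adjusted p of at most 0.05 (against 5.35%). These counts lay near the shares over all genes. Rps27 had levels of 4.70, 4.47, 4.34, 5.07 and 4.63 in P3 replicates 1 to 5 and 3.62, 3.94 and 4.10 in P4 replicates 1, 3 and 5 (change -0.76 ± 0.20, adjusted p = 0.0283), and Rpl13a had 3.41, 3.36, 3.07, 4.21 and 3.90 in P3 replicates 1 to 5 and 2.24, 3.31 and 3.05 in P4 replicates 1, 3 and 5 (change -0.73 ± 0.28, adjusted p = 0.0924). Rps27 did not overlap between the groups, and Rpl13a did. Changes in Rpl36 and Rps3 were -0.70 and -0.67 (adjusted p = 0.0346 and 0.0794). The median of the list was -0.87 with place on the slide as a term, -0.11 with either quantile normalization, -0.16 without P3 replicates 4 and 5, 0.16 with the index itself as a covariate, and -0.65 with the percentile over all probes, which lowers every change alike by about 0.32. With either quantile normalization the median over all probes tested was -0.05, close to that of the list.

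The bases around the start of Rps27, Rpl13a and Rps3, the named members with an entry, are shown from RefSeq (GRCm38.p6, minus strand of the genome, 12 bases before and 18 from the annotated start), with runs of 8 or more pyrimidines in capitals. Rps27 lies at chr3:90213631-90213660, Rpl13a at chr7:45128728-45128757 and Rps3 at chr7:99483692-99483721.
Rps27: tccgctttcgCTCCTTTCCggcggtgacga
Rpl13a: accctgcgacaagaCCTCCTCCTTTCCCag
Rps3: gcaagggtcgccgcgctgcgcggcgtcatt
Near its annotated start Rps3 had a longest run of 2 pyrimidines, against 9 in Rps27 and 14 in Rpl13a. A run of at least 8 pyrimidines within 10 bases of the start was found in 29 of 68 promoters of 58 ribosomal protein genes (42.6%) and in 14.6% of all promoters.

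The 2 lists were not alone. For the counts that follow, 1.36% of all genes tested were called higher and 0.406% lower, and 56.9% of all changes were positive. Other sets of mostly short mRNAs had negative medians: mitochondrial ribosomal proteins -0.53 (42 tested, 0 called), respiratory chain subunits -0.47 (74 tested) and proteasome subunits -0.48 (31 tested, 0 called). In the respiratory chain 69 of 74 changes were negative and 31 genes had all P4 samples below all P3 samples (against 6.8% of all genes). Its 1 called member was Ndufa4, a subunit linked to cytochrome oxidase, with levels of 2.19, 1.95, 2.05, 2.54 and 2.57 in P3 replicates 1 to 5 and 1.15, 1.45 and 1.18 in P4 replicates 1, 3 and 5 (change -0.999, adjusted p = 0.00812). Lsm3, of the ring that binds U6 RNA, was the called member of 53 splicing genes, with a change of -1.29 ± 0.25 (adjusted p = 0.00837), while the list's median was -0.02. Chromatin regulators, many of them large, had 55 of 58 positive changes, 29 genes with all P4 samples above all P3 samples (against 11.1% of all genes) and a median of 1.13, but 1 of the 58 was called. That was Kdm5b, a demethylase of histone H3 lysine 4, which rose by 2.30 ± 0.42 (adjusted p = 0.00735). Ubiquitin ligases and deubiquitinases had a median of 0.57 with Cbl and Smurf2 called out of 45. Cbl, which tags receptor tyrosine kinases, was at least 1.87-fold higher at P4 (adjusted p = 0.00502), and Smurf2 rose by 0.96 ± 0.17 (adjusted p = 0.00671). Hk2 (hexokinase 2) was the called member of 38 hypoxia and glycolysis genes, at 1.82 ± 0.31 (adjusted p = 0.00598). No member was called (limma) among translation factors (39 tested, median -0.25), endoplasmic reticulum stress genes (41, 0.17), actin and contractile genes (39, 0.26), immediate-early genes (27, 0.60) and replication-dependent histones (20, -0.37). Of epithelial and mesenchymal genes (27 tested, median 0.78), Fn1 was the called member.

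**Figure D4:**
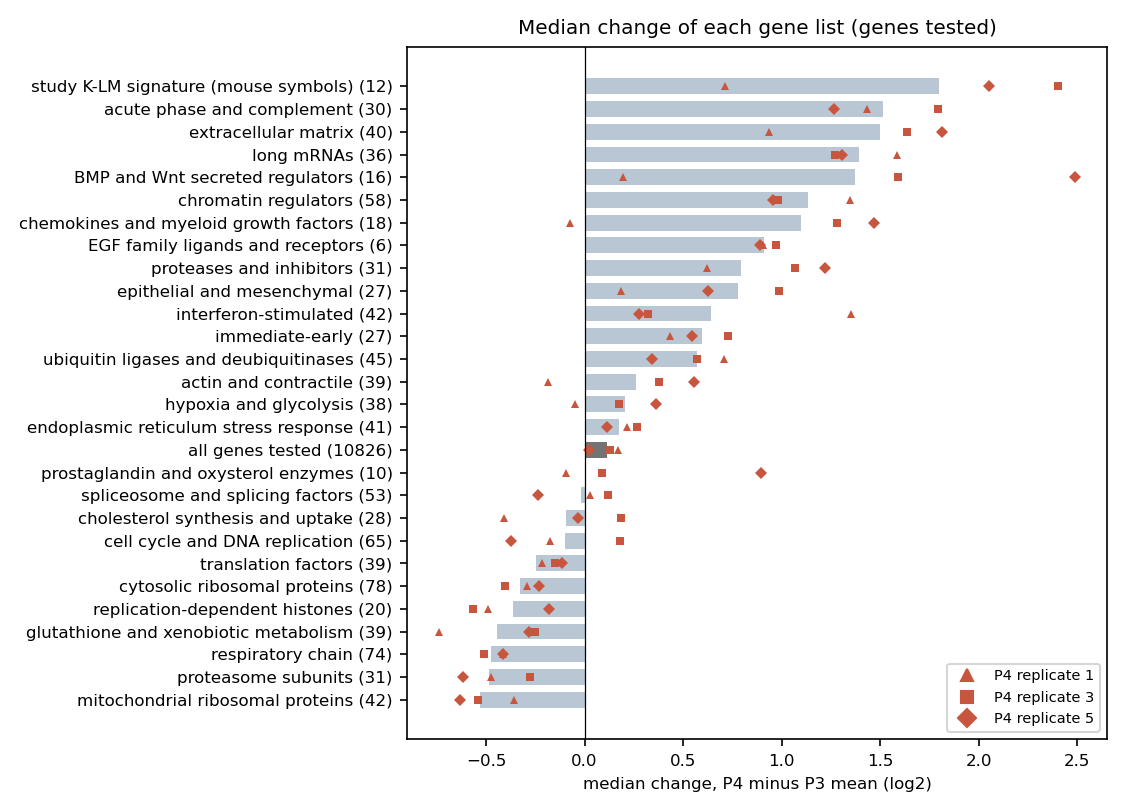
Median log2 change from K-LM P3 to P4 of each gene list (bars; genes tested in brackets) and the list's median in each P4 sample relative to the P3 mean (triangle, replicate 1; square, replicate 3; diamond, replicate 5). The 3 P4 samples lay close together for long mRNAs (1.58, 1.27 and 1.30) and apart for matrix genes (0.94, 1.63 and 1.81).

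With protein and transcript lengths not used here, the span of each gene on the genome served as a rough measure of size. The median change rose from bin to bin: -0.15 for 1502 genes under 5 kb, -0.10 for 5 to 10 kb, 0.01 for 10 to 20 kb, 0.15 for 20 to 50 kb, 0.43 for 50 to 100 kb, 0.62 for 100 to 200 kb and 0.70 for 336 genes of 200 kb or more. In the last bin 80.4% of changes were positive and 4.76% of genes were called higher, against 39.9% and 0.999% in the first. With the deposited values the medians ran from -0.18 to 0.42. Genes are not independent replicates, and the span holds introns.

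**Figure D5:**
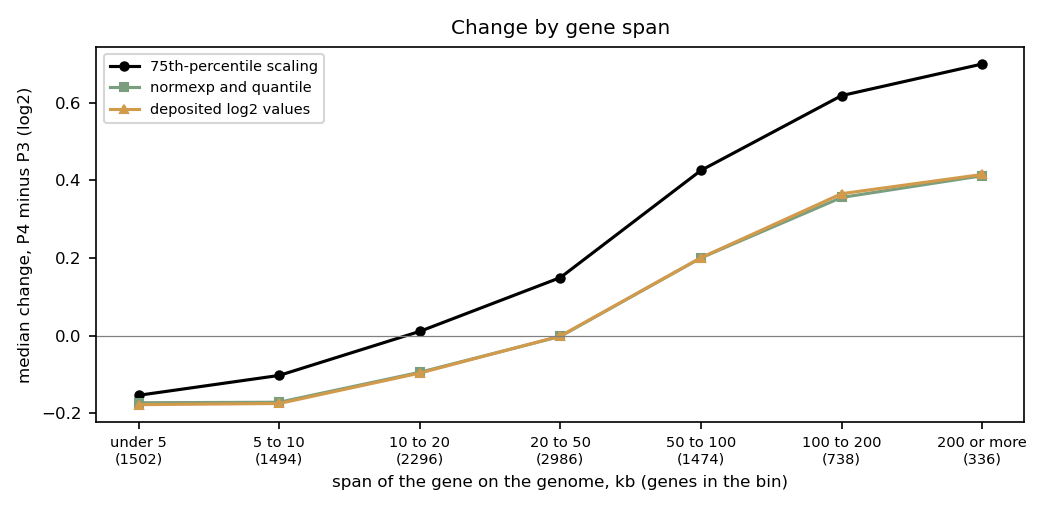
Median log2 change from K-LM P3 to P4 of the tested genes by the span of the gene (kb; genes per bin in brackets), with 3 normalizations. In each the median was higher in the bins above 50 kb than in those under 5 kb.

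Whether the step was particular to the kidney-to-lung route was tested as a difference between steps in a fit of 42 arrays. Against T-LM, 10 of 20453 probes (0.0489%) were called (limma, 2083 at an unadjusted p under 0.05), and against KPT 0 of 19984 (0%; limma, 499 at an unadjusted p under 0.05). Heph, a copper ferroxidase that moves iron out of cells, was the 1 gene of 11618 (0.00861%) called with a higher step in K-LM, and 6 genes (0.0516%) were called with a lower one. In K-LM, Heph was well above background in 0 of 5 P3 and 2 of 3 P4 samples, at least 1.52-fold higher at P4, and in T-LM in 1 of 3 P3 and 0 of 4 P4 samples (adjusted p of the difference = 0.00835). The 3 largest differences the other way were in Folr2, a folate receptor of macrophages, Sftpd (surfactant protein D) and Ear2, an eosinophil-type ribonuclease. Each was well above background in all 4 T-LM P4 samples and in no sample of T-LM P3, K-LM P3 or K-LM P4, so each entered the test through T-LM P4 alone and has only bounds. Folr2, Sftpd and Ear2 were at least 3.73-, 2.12- and 2.02-fold higher at T-LM P4 than at T-LM P3. For Sftpd all this holds for the probe tested. Another Sftpd probe, not well above background on any K-LM P3 or P4 array, did not pass the filter of this test and so did not bear it out. With place on the slide as a term, 0 probes were called.

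The steps of the leading genes can be set side by side, as fitted log2 changes where both passages had a sample well above background and as bounds otherwise. For Mgp the change was 6.51 in K-LM and 6.05 in T-LM, and in KPT Mgp was at least 1.53-fold higher at P4. For Il6 it was 4.83 in K-LM and 5.28 in T-LM, and at least 1.6-fold higher in KPT. Mmp3 changed by 4.68 in K-LM, was at least 14.3-fold higher in T-LM, and was not well above background in any KPT sample of either passage. Grem1 changed by 5.98 in K-LM and 3.78 in T-LM. Cfb was at least 6.29-fold higher at P4 in K-LM and at least 3.94-fold higher in T-LM. In KPT both Grem1 and Cfb were well above background in 0 of 2 P3 and 1 of 3 P4 samples. Gsta3 changed by -3.89 in K-LM, -2.67 in T-LM and -1.89 in KPT. None of these 6 genes passed the test of the difference between routes, which does not show that their steps were alike. By list, over the members tested in each pair of routes (so that the K-LM medians, given for the pair with T-LM, cover other members than above), the median step of matrix genes was 2.19 in K-LM, 1.51 in T-LM and 1.25 in KPT, that of acute-phase genes 1.39 in K-LM, 1.37 in T-LM and 0.43 in KPT, and that of long mRNAs 1.39 in K-LM, 0.45 in T-LM and 1.39 in KPT.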

How the data were processed

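RNA was labelled with Cy5 and hybridised to single-colour Agilent mouse arrays. The deposited scanner files hold the intensity of each spot, read with Feature Extraction 11.0.1.1 for the arrays used here, including a processed intensity already background-subtracted and detrended. The deposited log2 values matched quantile-normalized raw median signals within 0.11. Of 62976 spots, 3671 controls were left out. Spots of a probe were averaged (55681 probes), and 28026 probes were named through a RefSeq table (GRCm38.p6). Levels are log2 processed signal minus the 75th percentile over 11438 probes well above background on all 62 earlier-scanned arrays. Probes well above background on at least 3 of the 8 arrays were tested. A gene seen only in the 3 P4 samples could thus be tested through P4 alone, and a gene seen only in P3 samples through P3 alone.

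Limma 3.58.1 (R 4.3.3) was fitted to 15 arrays (P0 and K-LM P2 to P5), and changes are fitted log2 differences ± SE. Every adjusted p is from limma, 2-sided, with Benjamini-Hochberg adjustment over all probes tested. On simulated data with 200 changed probes, 85% of those of log2 size 2 and 95% of those of size 3 were called, among 18812 probes. These shares do not carry over to genes that vary widely between samples: Col1a1 (5.71) and Col3a1 (4.67) missed the threshold. Each gene was represented by its brightest tested probe. Where other probes of a named gene were tested (10 genes) they had the same sign, but not always a call. For Egfr 1 of 2 probes was called (changes of 1.87 and 3.77) and for Dst 1 of 2 (1.74 and 2.36). For Smurf2 1 of 3 was called (0.58 to 0.96). A gene above background in no sample of a group has only a bound, set by the lowest passing signal per array. Where only some samples of a group passed, the change rests partly on background levels. Named genes were the 12 largest called rises and falls without overlap, leaving out predicted symbols, the 2 largest called changes of each list, the 5 largest changes of the long and ribosomal protein lists, Saa2 and Cfb, and the 3 largest route differences each way. Other genes were named after their values were seen, and a gene that the rule names is not reported here. Older symbols of 66 list members were updated through RefSeq synonyms. Members and lists were chosen with earlier results of these data known. The scaling, background correction, filters, samples in the fit, slide, place, replicate number and single samples were varied.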

Additional observations from a re-analysis of the deposited data

Results flagged for a closer look

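A single sample stood far from the other P3 samples for 2 of the named genes. Ccnd2 was at a level of -6.10 in P3 replicate 3 and between -8.30 and -7.80 in the other 4. Cyp1b1 was at -5.41 in the same sample and between -8.60 and -7.77 in the others. Each of these genes was well above background in only 1 of the 5 P3 samples. Chance flags about 1 in 20 groups, and 54 were looked at. P3 replicate 3 also had the highest P3 levels of Col1a2 (-2.08) and Fn1 (-1.65).

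The step differed between K-LM and T-LM by the test of the difference itself for 4 named genes: Heph (2.66), Ear2 (-3.54), Sftpd (-3.55) and Folr2 (-4.70), each as the fitted K-LM step minus the T-LM step on the log2 scale in limma. These values are set against background and are no measured sizes: Ear2, Sftpd and Folr2 were not well above background in any sample of K-LM P3, K-LM P4 or T-LM P3, and Heph in none of K-LM P3 or T-LM P4. The Sftpd value is of the probe tested, and another Sftpd probe did not pass the filter.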

How the results depend on the processing

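The count of called probes (297) and the count of calls among list genes (41) moved with the setting, given here in that order. They were 571 and 59 with the percentile over all probes, 122 and 20 when all 8 arrays had to pass background, 2537 and 219 with P6, the repeat arrays, a late-slide term and RNA sample as a block, 2820 and 221 with all routes, 2764 and 191 with slide and 2779 and 179 with place as a fixed term. Both were 0 with the 8 arrays alone, with a replicate block and with the index as a covariate (4370, 2105 and 1410 probes at an unadjusted p under 0.05). Added after seeing the data, P4 replicate 1 as the only P4 array gave 152 and 7, leaving out P3 replicates 4 and 5 gave 5 and 2, and a threshold of 0.05 gave 2708 and 236. Leaving out 1 sample gave 3 to 630 and 1 to 83. The route count against T-LM (10) was 6 with normexp or the deposited values, 5 without a filter, 0 with the strict filter, 2 with slide, 0 with place, 9 with a replicate block and 6 to 30 without 1 sample. Against KPT it was 0 in every setting run (limma). The index difference was 1.14 with normexp, 1.16 with the deposited values, 3.19 with place as a term, 2.62 within 1 slide and 1.50 to 1.99 without 1 sample. The replicate numbers gave no sign of pairing: deviations of the same-numbered samples correlated at -0.03, -0.20 and -0.28 across probes. Of 52 named genes tested, no gene was called in every setting, and the directions held except with the index as a covariate, where Rpl13a was 0.23, Rps3 0.043, Plec -0.40 and the ribosomal protein median 0.16. The change by protein length and the long list by protein length were not run, because no protein lengths were used. Normexp started from median signals. The precision rests on 5 and 3 samples, and dim genes have only bounds.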
